A study of Mus musculus with 18 samples.

Results

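Perineuronal nets are lattices of extracellular matrix that wrap the cell bodies and proximal dendrites of neurons, in particular of fast-spiking inhibitory interneurons. Their backbone is hyaluronan, to which the lecticans (aggrecan, brevican, neurocan and versican, all chondroitin sulfate proteoglycans) bind at their N-terminal end. The link proteins hold this bond in place, and tenascin-R ties lecticans together at their C-terminal end. Astrocytes are known as a source of brevican and neurocan, while aggrecan is known mainly as a neuronal product.

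The 10 genes described here are the 4 lecticans (*Bcan*, brevican; *Ncan*, neurocan; *Vcan*, versican; *Acan*, aggrecan), the 4 hyaluronan and proteoglycan link proteins (*Hapln1* to *Hapln4*), tenascin-R (*Tnr*) and *Ptprz1*, a receptor-type tyrosine phosphatase whose secreted form is the proteoglycan phosphacan. They were picked by name, as a family, with earlier results of these data known, and are 10 of the 51912 genes counted. All 10 passed the filter on low counts (a sum of at least 10 read pairs), which left 24495 genes. The counts are per gene, so that the splice forms of *Bcan* and *Vcan*, and the receptor and phosphacan forms of *Ptprz1*, cannot be told apart.

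Primary cortical astrocyte cultures were made from newborn Aldh1l1-EGFP/Rpl10a mice, in which the *Aldh1l1* promoter, active in astrocytes, drives an EGFP-tagged ribosomal protein L10a. Every dish, control or ethanol, carried this transgene and was without serum from 24 h before the treatment until its end, and the cortices of male and female pups were pooled. Dishes received 50 mM ethanol (ethanol, 6 dishes) or 0 mM (control, 6 dishes) for 24 h, and RNA bound to tagged ribosomes was pulled down by translating ribosome affinity purification (TRAP). This immunoprecipitated fraction (IP) was sequenced from all 12 dishes. The RNA of the lysate after a spin that removed insoluble debris (input) was sequenced from replicates 4 to 6 of each treatment. The groups were therefore input control (n = 3), input ethanol (n = 3), IP control (n = 6) and IP ethanol (n = 6). The sources do not say whether the dishes came from separate preparations, so that the p-values measure the spread between dishes.

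Each library had 74239854 to 132810705 read pairs on genes. *Aldh1l1* was higher in IP, at 374.7 ± 14.9 CPM (SD, n = 12) against 181.4 ± 9.87 CPM in input (n = 6). *Rpl10a*, whose count sums the native gene and the transgene, was lower in IP, at 245.4 ± 9.10 against 353.7 ± 11.4 CPM. CPM are counts brought to a common library size with TMM factors. Of 11 astrocyte markers, all had at least 1 CPM in every group. RNA of markers of other cell types was also present. The summed CPM in input was 89.6 to 109 over 10 microglia markers and 388.5 to 397.5 over 9 markers of fibroblasts and meninges. Of 12 neuron markers 4 had at least 1 CPM in each group (*Tubb3*, *Gad1*, *Syt1* and *Nefm*). These 4 genes were higher in IP than in input, with log2 fold changes of 0.53, 0.41, 0.35 and 0.32. Their values therefore cannot be read as those of neurons alone. The summed CPM over the neuron list was 26.5 to 39.5. *Rbfox3* was at or below 0.336 CPM in every group mean, and *Slc17a6* was not tested because of its few reads.

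Each link protein gene lies beside a lectican gene in the mouse genome (GRCm38), with 0 annotated genes between. *Hapln4* (chromosome 8, 70083457 to 70090862, plus strand) and *Ncan* (chromosome 8, 70093085 to 70120873, minus strand) face each other across 2222 bases. *Hapln2* (chromosome 3, 88021750 to 88027583) lies 21519 bases from *Bcan* (chromosome 3, 87987531 to 88000230), both on the minus strand. *Hapln1* (chromosome 13, 89539796 to 89611652, plus strand) and *Vcan* (chromosome 13, 89655312 to 89742509, minus strand) are 43659 bases apart. *Hapln3* (chromosome 7, 79115102 to 79131018, minus strand) ends 2 bases from *Acan* (chromosome 7, 79053483 to 79115099, plus strand). *Tnr* lies on chromosome 1 (159523769 to 159931729) and *Ptprz1* on chromosome 6 (22875502 to 23052916), both on the plus strand. Of the 10 genes only *Tnr* shares exonic bases with another gene, 443 bases with the antisense gene *Gm38039*, where read pairs that lie on both genes were not counted.

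The promoters of *Bcan* and *Ncan*, 2 genes that rose together with ethanol, and of *Vcan*, which did not rise, are shown as the 250 bases before the RefSeq gene start (GRCm38.p6), 5′ to 3′ on the minus strand for all 3 genes. They cover chr3:88000357-88000606, chr8:70120845-70121094 and chr13:89742513-89742762. Capitals mark a match to any of 4 motifs searched on both strands, the nuclear factor I motif TTGGCA, the SOX site ACAAAG, the AP-1 site TGANTCA and the E-box CACGTG.
*Bcan*: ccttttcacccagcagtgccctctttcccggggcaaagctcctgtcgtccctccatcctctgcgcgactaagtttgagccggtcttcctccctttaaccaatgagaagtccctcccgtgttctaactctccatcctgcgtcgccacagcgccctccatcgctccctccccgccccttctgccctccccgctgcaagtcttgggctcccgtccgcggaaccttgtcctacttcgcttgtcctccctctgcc
*Ncan*: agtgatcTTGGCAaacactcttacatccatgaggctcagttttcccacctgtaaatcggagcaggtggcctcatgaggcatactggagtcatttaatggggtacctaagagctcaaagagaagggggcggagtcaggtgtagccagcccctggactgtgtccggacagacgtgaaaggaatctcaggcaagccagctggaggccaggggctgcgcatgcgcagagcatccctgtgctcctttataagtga
*Vcan*: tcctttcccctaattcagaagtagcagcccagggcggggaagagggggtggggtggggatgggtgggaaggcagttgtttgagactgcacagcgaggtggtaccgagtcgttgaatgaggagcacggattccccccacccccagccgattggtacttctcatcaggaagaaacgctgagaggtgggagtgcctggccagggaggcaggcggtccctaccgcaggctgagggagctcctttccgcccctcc
The only match in these windows is the TTGGCA that begins 243 bases before the start of *Ncan*. With the 50 bases after the start included, 9 of the 10 genes were in the table, and 1 of them held the nuclear factor I motif, against 14.1% of all 32851 windows. The SOX site was found in *Tnr* alone, on the opposite strand, against 18.7% of all windows. The AP-1 site and the E-box, in 7.81% and 7.15% of all windows, were found in 0 of the 9. The *Bcan* and *Vcan* windows shown have GC contents of 62.0% and 62.4%, and that of *Ncan* 54.4%. These matches are a description of the letters.

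The levels of the genes were compared per length, as CPM per kilobase of merged exons. *Bcan* was the most abundant of the 10 genes in every group, at 40.1 ± 1.71 (SD, n = 3) in input control and 84.0 ± 1.31 (n = 6) in IP control. *Ncan* came next, at 8.83 ± 0.0896 in input control and 17.2 ± 0.499 in IP control, followed by *Ptprz1*, at 8.24 ± 0.282 and 11.6 ± 0.473. The order of *Ncan* and *Ptprz1* rested on the length used. With the longest transcript in place of the merged exons *Ptprz1* was above *Ncan*, at 14.5 against 8.83 in input control and 20.5 against 17.2 in IP control. *Vcan* was at 4.65 ± 0.0710 in input control and 1.87 ± 0.0741 in IP control. *Hapln4*, the link protein known from perineuronal nets of the brainstem and cerebellum, was the most abundant link protein, at 1.08 ± 0.0462 in input control and 1.72 ± 0.0714 in IP control. *Vcan* and *Hapln4* overlapped in IP control, while *Vcan* was above *Hapln4* in both input groups and below it in IP ethanol, in each case without overlap. The overlap in IP control also rested on the length used. With the longest transcript *Vcan* was at 2.18 and *Hapln4* at 1.85 in IP control.

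**Figure D1:**
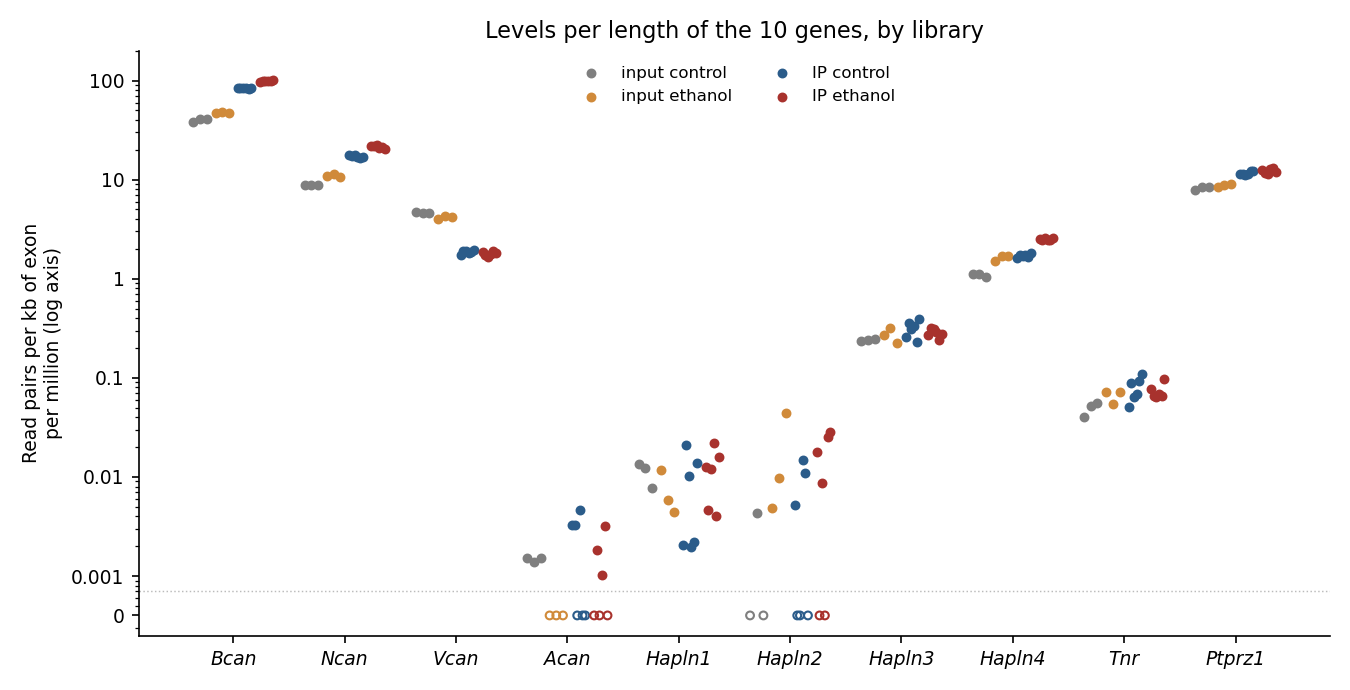
Level per length of each of the 10 genes in each library, in CPM per kilobase of exon on a log axis, with libraries without a read pair drawn as open circles at 0. The genes span from *Bcan*, at 40.1 to 98.6 in group means, down to *Acan*, at or below 0.00187.

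The other link proteins and *Acan* were at or near the limit of the data. *Hapln3*, the link protein known from tissues outside the brain as well, had 60 to 135 read pairs per library and a level of 0.242 ± 0.00564 per kilobase in input control. *Tnr* had 45 to 117 read pairs per library and a level of 0.0492 ± 0.00844. *Hapln1*, known as the main link protein of cortical nets, had 1 to 17 read pairs per library, and *Hapln2*, known from the nodes of Ranvier of myelinated axons, 0 to 8. *Acan* had 14 read pairs over all 18 libraries, of 1559526559 read pairs on genes. In the 3 input ethanol libraries *Acan* had 0 of 244002072 read pairs, which allows a level of up to 0.0123 CPM, counting error only. In input control it had 1 read pair in each of 3 libraries, so that no difference was detectable at this depth. For *Acan*, *Hapln1* and *Hapln2* no fold is given.

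Among the lecticans, the summed level per length was divided unevenly. *Bcan* made up 74.8% ± 0.817 of it in input control (n = 3) and 81.5% ± 0.264 in IP control (n = 6). The share of *Ncan* was 16.5% ± 0.405 in input control and 16.7% ± 0.300 in IP control. *Vcan* made up 8.70% ± 0.416 in input control and 1.82% ± 0.0780 in IP control. The share of *Acan* was at most 0.00455% in any library. These shares rest on the length used. Per kilobase of the longest transcript *Bcan* was at 51.8 in place of 40.1 in input control, and at 108.7 in place of 84.0 in IP control.

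The IP fraction was compared with input to ask which of these mRNAs were enriched on the tagged ribosomes. *Bcan*, *Ncan*, *Hapln4*, *Ptprz1* and *Tnr* were higher in IP and *Vcan* was lower, while *Hapln3*, *Acan*, *Hapln1* and *Hapln2* did not pass the test. The test was edgeR's quasi-likelihood test over 18 libraries with a term for treatment, with Benjamini-Hochberg adjustment over all genes tested and a threshold of 0.05. Thus 5 of 10 genes were called higher, against 25.2% of all genes tested, and 1 was called lower, against 25.8%. Among genes that averaged 5 CPM or more, 46.6% were called higher and 32.0% lower. Of the 10 genes, *Bcan*, *Ncan*, *Vcan*, *Hapln4* and *Ptprz1* averaged as much, and all of these but *Vcan* were called higher. The libraries of the 2 fractions did not overlap for 4 of the 10 genes (*Bcan*, *Ncan*, *Vcan* and *Ptprz1*), against 25.0% of all genes. IP is drawn from tagged ribosomes and input from all cells of the dish. The ribosome loading of an mRNA and its restriction to tagged cells therefore cannot be told apart. *Aldh1l1*, whose promoter drives the tag, had a log2 fold change of 1.05 toward IP (SE 0.0216). In these bulk fractions, fewer cells of a type and less RNA per cell cannot be told apart.

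*Bcan*, a lectican of brain tissue, had 154.9, 165.5 and 167.9 CPM in input control and from 331.4 to 345.7 CPM, with a median of 342.7, in IP control. Every IP library was above every input library. On the log2 scale *Bcan* was higher by 1.06 (SE 0.0194, adjusted p = 2.8e-55 by edgeR). Of the 11066 genes that averaged 5 CPM or more, 6 had a larger log2 fold change toward IP than *Bcan*. The enrichment was as large within dishes. The log2 ratio of IP to input in the same dish ranged from 1.002 to 1.14 over 3 control dishes and from 1.04 to 1.11 over 3 ethanol dishes.

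*Ncan*, the soluble lectican of the developing brain, had 62.9, 64.2 and 63.6 CPM in input control and from 119.1 to 128.1 CPM, with a median of 123.1, in IP control. Its log2 fold change in IP was 0.96 (SE 0.0219, adjusted p = 2.0e-49 by edgeR). The 6 dishes lay close together, with log2 ratios from 0.89 to 0.95. *Hapln4*, its neighbour on chromosome 8, was higher in IP by 0.64 on the log2 scale (SE 0.0468, adjusted p = 2.7e-20 by edgeR). All 6 dishes showed this direction, with log2 ratios from 0.54 to 0.83. *Hapln4* libraries of input ethanol overlapped with those of IP control, so that the fractions as a whole were not apart.

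*Ptprz1* was higher in IP by 0.50 on the log2 scale (SE 0.0251, adjusted p = 9.7e-21 by edgeR), and its dishes ranged from 0.41 to 0.59. *Tnr* was called higher in IP by 0.40 on the log2 scale (SE 0.138, adjusted p = 0.011 by edgeR). The log2 ratio of *Tnr* was 0.80, 0.87 and 0.95 in the control dishes and −0.05, 0.29 and 0.42 in the ethanol dishes, without overlap, and *Tnr* was called in the control libraries alone, at 0.66 (adjusted p = 0.0019 by edgeR), and not in the ethanol libraries alone, at 0.15 (adjusted p = 0.56). The direct test of the difference between treatments did not pass (adjusted p = 0.83 by edgeR). Without replicate 4 of input control the adjusted p for *Tnr* was 0.061. *Hapln3* had a log2 fold change of 0.22 (95% interval −0.01 to 0.46, adjusted p = 0.12 by edgeR), and 4 of 6 dishes were above 0. Without replicate 5 of input ethanol its adjusted p was 0.041.

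**Figure D2:**
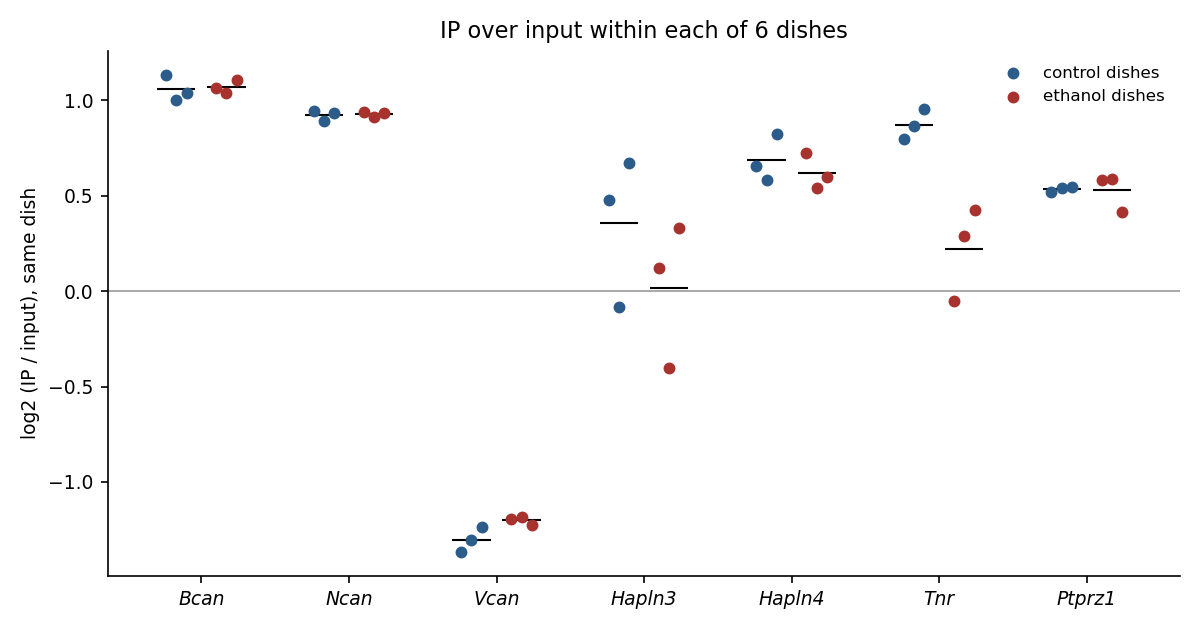
Log2 ratio of IP to input CPM in each of the 6 dishes with both fractions, for the 7 genes with enough read pairs. Points are dishes, lines are means of 3 dishes, and 0 marks equal levels. *Bcan* and *Ncan* lie between 0.89 and 1.14 in every dish, *Vcan* between −1.37 and −1.18, and the control and ethanol dishes are apart for *Tnr*.

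*Vcan*, the lectican with the widest expression outside the nervous system, moved the other way. It had 68.4, 67.0 and 66.4 CPM in input control and from 25.2 to 28.2 CPM, with a median of 27.2, in IP control. Every IP library was below every input library, and the log2 fold change was −1.27 (SE 0.0260, adjusted p = 2.7e-52 by edgeR). The dishes ranged from −1.37 to −1.18. Of the 11066 genes with at least 5 CPM, 142 had a lower log2 fold change. Markers of 2 other cell types, microglia and fibroblasts, were mostly lower in IP. Of 10 microglia markers 9 were called lower and 0 higher, with a median log2 fold change of −2.46, and their summed CPM was 89.6 to 109 in input and 15.5 to 19.6 in IP. Of 9 markers of fibroblasts and meninges 6 were called lower and 2 higher, with a median of −1.15, and their summed CPM was 388.5 to 397.5 in input and 230.9 to 261.3 in IP. The other lists were mixed. Of 12 oligodendrocyte lineage markers tested, 5 were called higher and 4 lower, of 11 neuron markers 4 higher and 2 lower, and of 7 endothelial and mural markers 3 higher and 2 lower. Of the oligodendrocyte lineage list of 13 genes, 7 had at least 1 CPM in each group, with *Olig1* highest in CPM (111.5 to 207.2 in group means), and the summed CPM was 258.9 to 424.2. *Sox10* was at or below 0.112 CPM in every group mean, and *Opalin* was not tested because of its few reads. Of 11 astrocyte markers 9 were called higher and 1 lower, with a median of 0.60, against a median of −0.03 over all genes tested. The part of other cells in the result for *Vcan* was not tested.

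Ethanol was compared with control in each fraction to ask whether the genes responded in the input RNA, in the ribosome-bound RNA or in both. *Hapln4*, *Ncan* and *Bcan* rose with ethanol in both fractions, by 47.2%, 25.4% and 18.0% in IP and by 50.0%, 24.0% and 17.9% in input. *Ptprz1* rose by 5.94% in IP and 5.57% in input, with a call that was lost in most alternatives in IP. *Vcan* fell in input, by 10.1%, and did not pass the test in IP. The calls came to 4 of 10 genes up in IP, against 11.9% of all genes tested, and 0 down, against 9.48%. In input 4 of 10 were called up, against 7.21% of all genes, and 1 down, against 7.78%. Among genes with at least 5 CPM, 23.0% were called up in IP and 14.5% in input.

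In IP, control and ethanol were apart in every library for *Bcan*, *Ncan* and *Hapln4*, which is 3 of 10 genes, against 9.96% of all genes. In input, with 3 against 3 libraries, 7 of 10 genes did not overlap, against 27.1% of all genes. The 7 include *Acan* and *Hapln2*, which had at most 8 read pairs in an input library.

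*Hapln4* had 4.37, 4.34 and 4.04 CPM in input control and 5.88, 6.63 and 6.70 CPM in input ethanol. In IP it ranged from 6.38 to 7.17 CPM in control, with a median of 6.77, and from 9.64 to 10.1 CPM in ethanol, with a median of 9.86. The treatments were apart in both fractions. The log2 fold change was 0.56 in IP (SE 0.0496, adjusted p = 1.0e-13) and 0.59 in input (SE 0.0905, adjusted p = 6.6e-09), both by edgeR. *Hapln4* stood among the genes that rose most. Of 10975 genes with at least 5 CPM, 3 had a larger log2 fold change in IP (*Slc7a4*, 0.61; *Ypel4*, 0.60; *Syt3*, 0.59), and of 11173 such genes 1 had a larger one in input (*Ypel4*, 0.73). These genes were named after their values were seen. Tested against a fold change of 1.2 instead of no change, *Hapln4* was the one gene of the 10 called in IP, and the one called in input.

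*Ncan* had 62.9, 64.2 and 63.6 CPM in input control and 78.6, 82.0 and 76.4 CPM in input ethanol. In IP it ranged from 119.1 to 128.1 CPM in control and from 146.1 to 161.0 CPM in ethanol, with medians of 123.1 and 155.2. The treatments did not overlap in either fraction. Its log2 fold change was 0.33 in IP (SE 0.0255, adjusted p = 8.6e-16) and 0.31 in input (SE 0.0289, adjusted p = 2.8e-24), both by edgeR. With GC and length trends removed, the *Ncan* change was 0.27 in IP and 0.30 in input, and *Ncan* was still called in both. The value in IP was below the 95% interval of the first fit (0.28 to 0.38).

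*Bcan* had 190.4, 196.4 and 190.3 CPM in input ethanol, all above the 154.9 to 167.9 CPM of input control. In IP ethanol it ranged from 389.5 to 409.8 CPM, with a median of 401.3, all above the 345.7 CPM that was highest in IP control. The log2 fold change of *Bcan* was 0.24 in IP (SE 0.0224, adjusted p = 6.4e-13) and 0.24 in input (SE 0.0233, adjusted p = 1.2e-21), both by edgeR. With GC and length trends removed, the *Bcan* change in IP was smaller, at 0.17, below the 95% interval of the first fit (0.19 to 0.28). In input it was 0.23. *Bcan* was still called in both fractions.

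**Figure D3:**
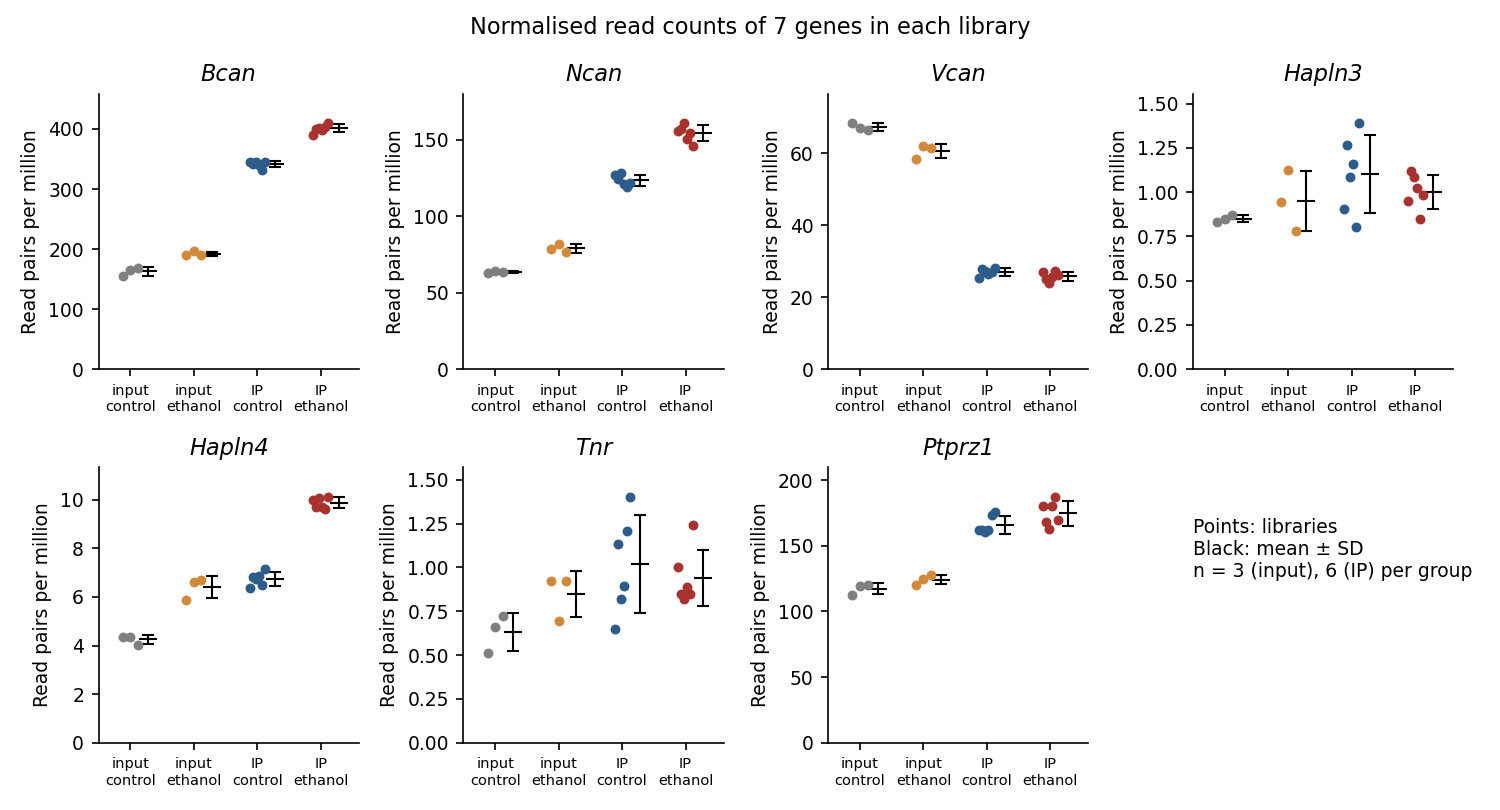
Normalised read counts (CPM, linear axes from 0) of 7 genes in each of the 18 libraries, as points by group, with the mean ± SD in black. Ethanol libraries of *Bcan*, *Ncan* and *Hapln4* lie above the control libraries of the same fraction, while those of *Hapln3* and *Tnr* overlap with control in both fractions.

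*Ptprz1* had 112.7, 119.3 and 120.0 CPM in input control and 120.4, 124.7 and 127.5 CPM in input ethanol, next to each other without overlap. In IP the groups overlapped, at 160.1 to 175.4 CPM in control and 162.4 to 187.4 CPM in ethanol. Its log2 fold change was 0.08 in IP (SE 0.0301, adjusted p = 0.045) and 0.08 in input (SE 0.0251, adjusted p = 0.016), both by edgeR. The call was lost in 17 of 24 alternatives in IP and in 6 of 16 in input, with adjusted p from 0.0031 to 1 in IP.

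*Vcan* had 58.5, 62.1 and 61.3 CPM in input ethanol, all below the 66.4 to 68.4 CPM of input control. The log2 fold change in input was −0.15 (SE 0.0301, adjusted p = 9.6e-06 by edgeR). In IP the groups overlapped, at 25.2 to 28.2 CPM in control and 24.1 to 27.3 CPM in ethanol, with a log2 fold change of −0.06 (95% interval −0.13 to 0.02, adjusted p = 0.32 by edgeR). With GC and length trends removed it was −0.10 in IP, with an adjusted p of 0.0070. The 2 fractions were not shown to differ for *Vcan*. The difference of its ethanol effect between them was 0.09 (95% interval −0.02 to 0.19, adjusted p = 0.86 by edgeR).

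*Tnr* and *Hapln3* did not pass the test with ethanol in either fraction. *Tnr* had 0.513, 0.662 and 0.725 CPM in input control and 0.920, 0.695 and 0.924 CPM in input ethanol, and its log2 fold change was 0.41 (95% interval −0.05 to 0.87, adjusted p = 0.28 by edgeR). In IP it was −0.11 (95% interval −0.40 to 0.19, adjusted p = 0.70). The difference between the fractions was −0.53 for *Tnr* (95% interval −1.06 to 0.01, adjusted p = 0.83 by edgeR), the widest of the 7 genes. *Hapln3* had log2 fold changes of −0.13 in IP (95% interval −0.39 to 0.13) and 0.16 in input (95% interval −0.25 to 0.57). With 45 to 135 read pairs per library, changes within these intervals were not excluded for either gene.

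**Figure D4:**
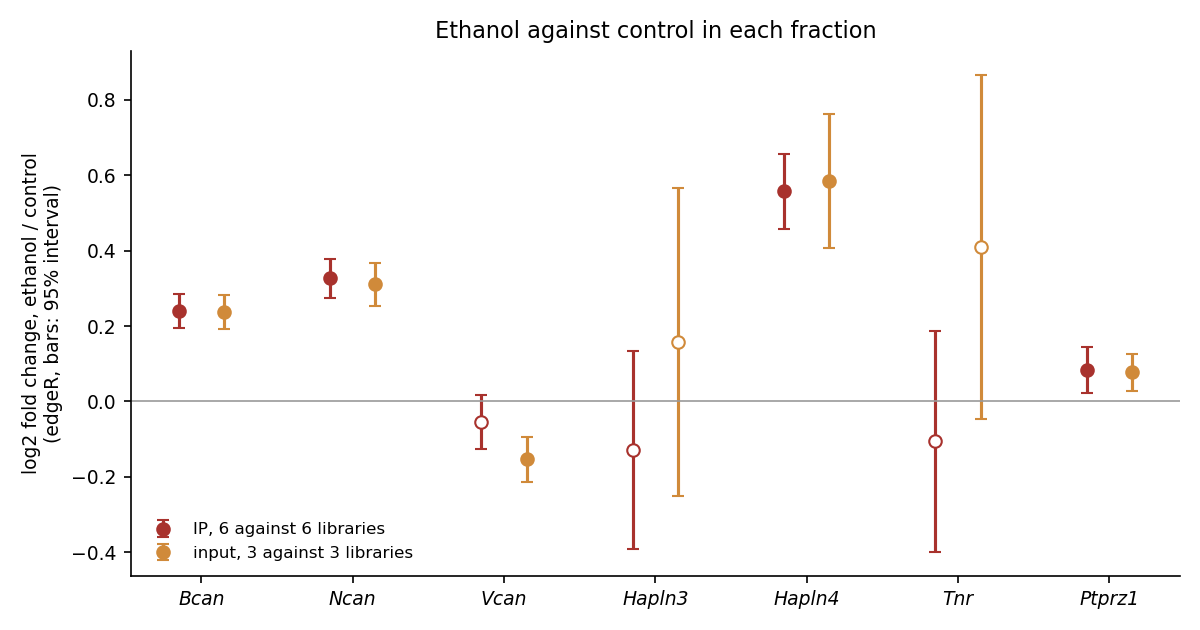
Log2 fold change of ethanol against control for 7 genes in IP (6 against 6 libraries) and in input (3 against 3), with 95% intervals from edgeR. Filled points passed an adjusted p of 0.05. The intervals of *Hapln4*, *Ncan* and *Bcan* lie above 0 in both fractions, and those of *Hapln3* and *Tnr* include 0.

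The ethanol effect in IP was compared with that in input directly, as an interaction over 18 libraries. By edgeR 0 of the 10 genes and 0% of all genes tested were called (1459 genes at an unadjusted p under 0.05). DESeq2 called 4 genes and edgeR with the dish as a block called 102, with 0 of the 10 among them in either. The intervals bound the difference for the abundant genes. The log2 difference was −0.01 for *Bcan* (95% interval −0.08 to 0.06), 0.00 for *Ncan* (−0.08 to 0.09), −0.04 for *Hapln4* (−0.22 to 0.15) and −0.01 for *Ptprz1* (−0.11 to 0.10).

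Some of the proportions among the genes shifted with ethanol within libraries. *Hapln4* stood at 12.3% ± 0.555 of the level per length of *Ncan* in input control (n = 3) and at 14.9% ± 1.19 in input ethanol, at 10.0% ± 0.564 in IP control (n = 6) and at 11.8% ± 0.507 in IP ethanol. The libraries of the 2 treatments did not overlap in either fraction, at 9.20% to 10.8% in IP control and 11.3% to 12.7% in IP ethanol. *Ncan* stood at 20.5% ± 0.433 of *Bcan* in IP control and at 21.7% ± 0.947 in IP ethanol, and at 22.1% ± 0.785 and 23.2% ± 0.475 in input. For this ratio the libraries of the treatments overlapped in both fractions. The share of *Vcan* among the lecticans was 6.71% ± 0.165 in input ethanol and 1.47% ± 0.0787 in IP ethanol, below all control libraries of the same fraction. These proportions are descriptions and were not tested.

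**Figure D5:**
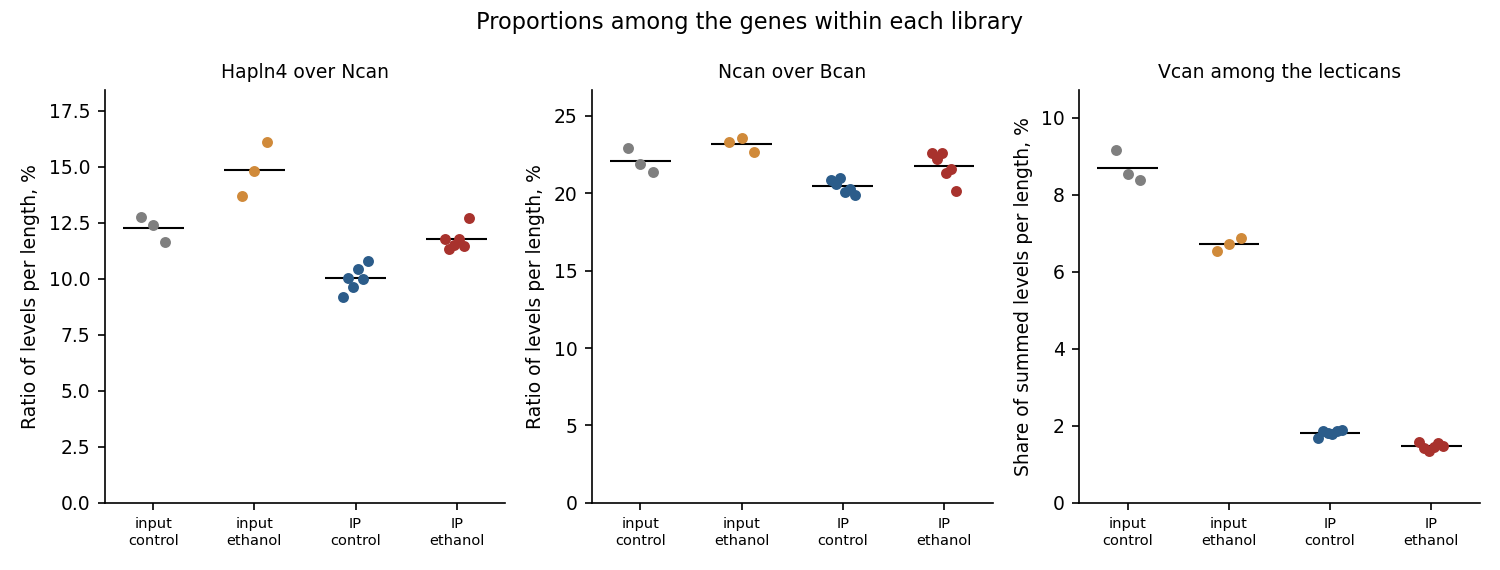
Ratio of the level per length of *Hapln4* to *Ncan* and of *Ncan* to *Bcan*, and share of *Vcan* in the summed level of the 4 lecticans, in percent, with 1 point per library and lines at group means. The ratio of *Hapln4* to *Ncan* is 9.20% to 10.8% in IP control and 11.3% to 12.7% in IP ethanol, and the share of *Vcan* is 8.39% to 9.17% in input control and 1.35% to 1.57% in IP ethanol.

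Markers of cell types were followed with ethanol beside these genes. Microglia markers had 1 of 10 genes called up in IP and 2 in input, with 0 down in either. Of 11 neuron markers 0 were called in IP and 1 was called up in input, and of 9 markers of fibroblasts and meninges 1 was called down in IP and 0 in input. Astrocyte markers had 4 of 11 called up (among them *Aqp4* and *Slc1a3*, with log2 fold changes of 0.25 and 0.23) and 1 down in IP, and their summed CPM was 2450 to 2530 in IP control and 2543 to 2629 in IP ethanol. In input 4 were called up and 4 down (*Aldh1l1*, *Gfap*, *Aldoc* and *Glul*), with summed CPM of 1579 to 1642 in control and 1626 to 1660 in ethanol. Markers of oligodendrocytes and their precursors had 2 of 12 called up (*Pdgfra* and *Cspg4*) and 1 down (*Olig1*) in IP, and 3 up and 1 down in input. Of 7 endothelial and mural markers 3 were called down in IP and 2 in input, with 0 up, among them *Acta2*, smooth muscle actin, with log2 fold changes of −0.56 and −0.59. *Acta2* was higher in IP than in input, by 0.43 on the log2 scale (adjusted p = 1.3e-09 by edgeR), so that its values cannot be read as those of mural cells alone. *Pecam1* and *Cdh5* were at or below 0.362 and 0.278 CPM in every group mean. The part of these marker shifts in the ethanol results of the 10 genes was not tested.

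Over the 12 IP libraries, the genes outside the set whose log2 CPM was most like that of *Bcan* were *Txnip*, an inhibitor of thioredoxin (Pearson r = 0.99), *Lipa*, lysosomal acid lipase (r = 0.99), and *Cadps2*, a factor of vesicle release (r = 0.98). For *Ncan* they were *Pdzrn3* (r = 0.98), *Hepacam*, an adhesion molecule of astrocyte end-feet (r = 0.98), and *Smarcc2*, a chromatin remodelling subunit (r = 0.98). For *Vcan* they were *Rbm26* (r = 0.95), *Larp4*, an RNA-binding protein (r = 0.92), and *Fam126a* (r = 0.92). The libraries share the division into control and ethanol, so that r for *Bcan* and *Ncan* includes that difference. *Bcan* and *Ncan* had r = 0.95 with each other over all 12 libraries, and 0.06 after the mean of each treatment was subtracted. *Vcan* and *Ptprz1* had r = 0.28, and 0.68 after subtraction. These values are descriptions over 10975 genes with at least 5 CPM.

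The genes that act with the set were taken from 5 lists. The lists were written by function with earlier results of these data known, so that their counts are descriptions. Their counts stand against the shares of all genes given above, 11.9% up and 9.48% down with ethanol in IP, 7.21% and 7.78% in input, and 25.2% higher and 25.8% lower in IP than in input. Among genes with at least 5 CPM these shares were 23.0% and 17.3%, 14.5% and 15.1%, and 46.6% and 32.0%. Proteins that bind lecticans, tenascin-R or phosphacan, or act as their receptors, made up the first list. With ethanol 13 of its 18 genes were called up in IP and 0 down, and 9 up and 2 down in input, with median log2 fold changes of 0.12 and 0.08, against 0.01 and 0.00 over all genes. *Nfasc*, neurofascin, a cell adhesion molecule of nodes and a partner of *Nrcam*, rose from 167.8 ± 4.38 to 216.4 ± 6.43 CPM in IP (log2 fold change 0.37, adjusted p = 5.9e-19 by edgeR) and by 0.30 on the log2 scale in input. *Cntn1*, contactin-1, a neuronal ligand of phosphacan and tenascin-R, rose by 0.29 in IP, and *Ptprd* by 0.31. *Rtn4rl2*, a receptor of the Nogo family, fell in input from 8.10 ± 0.152 to 5.32 ± 0.757 CPM (log2 fold change −0.61, adjusted p = 8.0e-12). It was not called in IP, at −0.11. In IP against input 11 of the 18 were called higher and 3 lower. *Nfasc* was enriched by 1.07 and *Nrcam* by 0.79 on the log2 scale, and *Sema3a*, a repulsive guidance cue held in perineuronal nets, was lower by a log2 fold change of −1.61.

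A list of other matrix proteins and proteoglycans, not all particular to nets, gave 6 of 16 genes up and 2 down with ethanol in IP. In input it gave 3 up and 4 down. *Thbs1*, thrombospondin 1, fell from 1588 ± 49.5 to 1272 ± 67.5 CPM in IP (log2 fold change −0.31, adjusted p = 1.4e-10) and by 0.35 in input. *Cspg4*, the NG2 proteoglycan, and *Sparcl1*, hevin, rose in IP by 0.29 and 0.23 on the log2 scale. In IP against input 11 of 16 were called higher and 3 lower. *Cspg4* was enriched by 1.07 on the log2 scale, and *Dcn*, decorin, and *Thbs2* were lower, with log2 fold changes of −1.87 and −0.97. *Cspg4* is also a precursor marker and *Dcn* a fibroblast marker in the lists above.

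Of 14 genes of proteases that cut lecticans and of inhibitors of such proteases, 0 were called up and 3 down with ethanol in IP, and 1 up and 4 down in input. In input the 1 gene up was the protease gene *Mmp2*, with a log2 fold change of 0.10. The inhibitor gene *Timp3* was among the 4 down, at −0.09. *Adamts1*, an aggrecanase, fell from 105.3 ± 2.16 to 89.5 ± 4.03 CPM in IP (log2 fold change −0.23, adjusted p = 9.98e-10) and from 70.3 ± 0.804 to 59.6 ± 2.69 CPM in input. *Adamts5* and *Adamts9*, of the same family, fell by 0.11 each on the log2 scale in IP, calls that were lost in 3 and 5 of 24 alternatives. *Mmp9*, a gelatinase, fell in input from 14.5 ± 0.933 to 10.1 ± 1.35 CPM (log2 fold change −0.53, adjusted p = 2.4e-15). It was not called in IP, at −0.07. *Mmp9* and *Mmp2* were lower in IP than in input, with log2 fold changes of −1.56 and −1.26, beside *Adamts1* at 0.58. In all 10 of 14 were called higher in IP and 3 lower, with the inhibitor genes *Timp1*, *Timp2*, *Timp3* and *Timp4* among those higher.

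Of 14 genes of hyaluronan synthesis, binding and breakdown, 2 were called up and 1 down with ethanol in IP, and 0 up and 3 down in input. *Hmmr*, a hyaluronan receptor of dividing cells, fell from 6.23 ± 0.610 to 4.80 ± 0.216 CPM in IP (log2 fold change −0.37, adjusted p = 6.0e-06), and *Hyal1*, a lysosomal hyaluronidase, rose by 0.13 on the log2 scale. *Tmem2*, a cell surface hyaluronidase, rose by 0.08 in IP, a call lost in 16 of 24 alternatives. *Itih5*, which binds hyaluronan, fell by 0.21 in input, and *Hyal2* by 0.09, a call lost in 7 of 16 alternatives. Neither was called in IP, at −0.10 and −0.03. *Cemip*, which breaks down hyaluronan, was higher in IP, at 571.6 ± 18.2 CPM in IP against 437.0 ± 12.1 in input. *Itih5* was higher in IP by 0.91 on the log2 scale. In all 5 of the 14 were called higher in IP and 2 lower.

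The 22 enzymes that build and sulfate chondroitin sulfate chains, the sugars the lecticans carry, had 10 genes called up and 0 down with ethanol in IP, and 3 up and 0 down in input, the latter near the share of expressed genes. Their median log2 fold changes were 0.05 and 0.03. *Chst14*, a dermatan sulfotransferase, rose from 29.9 ± 1.22 to 34.1 ± 1.35 CPM in IP (log2 fold change 0.19, adjusted p = 8.9e-06), and *Csgalnact1*, which starts the chain, rose by 0.19. In input *Csgalnact1* was not called, at −0.002. *Dsel*, a dermatan sulfate epimerase, rose by 0.24 in input and by 0.15 in IP, and was called in both. *Csgalnact1* and *Csgalnact2* were lower in IP than in input, with log2 fold changes of −1.25 and −0.92, and *Chst11*, a chondroitin sulfotransferase, was higher, at 0.62. The list gave 6 genes higher and 8 lower in IP, which is 27.3% and 36.4% of the list.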

How the data were processed

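RNA-Seq libraries of IP and input fractions were analysed. The authors trimmed reads with Trimmomatic, aligned them with STAR to GRCm38 and deposited raw counts of read pairs per gene, not normalised and not pooled. The series table of unstranded counts was used. It matched the single-library files in every value (0 differences). STAR set aside pairs mapped to several places (3.60% on average) and pairs on overlapping genes (5.50%). Genes with at least 10 read pairs over 18 libraries were kept (24495). CPM and log2 fold changes were computed from the deposited counts with edgeR 4.0.16 (TMM, estimateDisp, robust glmQLFit, glmQLFTest) in R 4.3.3. Treatment was a covariate in the fit of IP vs. input (18 libraries). Ethanol was fitted within each fraction, and the difference between fractions as an interaction. Benjamini-Hochberg adjustment covered all tested genes, and calls had an adjusted p below 0.05. DESeq2 1.42.0, total-count scaling, other filters, stranded counts, blocks, a test against a fold change of 1.2, removal of GC and length trends (spline with 4 degrees of freedom) and leaving out each library were the alternatives. The fits were tested on simulated data.

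The labels give the input and the IP library of a treatment that carry one number the same dish number. The paper also states that input was taken from the lysates used for IP. The correlation of deviations from group means was 0.03 to 0.21 for libraries of one dish. It was −0.15 to 0.40 for control and ethanol libraries that share only a replicate number. The pairing therefore rests on the labels and the paper, and these correlations do not show it. The members and lists were chosen with earlier results of these data known. The genes named are the 10 members, *Aldh1l1*, *Rpl10a*, up to 3 called genes per list and comparison with the largest absolute log2 fold change and a mean of at least 5 CPM, and the 3 genes most like *Bcan*, *Ncan* and *Vcan* over the IP libraries (log2 CPM with a prior count of 2). Lectican shares, markers named beside a result and the *Timp* genes were added after values were seen. Lengths are merged exons of GENCODE M21. Promoters are those of RefSeq; that of *Hapln4* was not used here.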

Additional observations from a re-analysis of the deposited data

Results flagged for a closer look

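In the 6 IP ethanol libraries, the log2 ratio of *Hapln4* to *Ncan* levels per length was −2.98 (a ratio of 12.7%) in replicate 6, and its gap to the nearest library was 0.654 of the range of the group. This was 1 of 18 groups of 6 IP libraries examined (7 genes and 2 ratios in each treatment), and about 1 in 20 groups would stand out by chance. *Ncan* had its lowest level among IP ethanol libraries in the same replicate, at 146.1 CPM, and *Hapln4* its highest, at 10.1 CPM.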

How the results depend on the processing

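The counts of members called stayed within 1.5 times of those reported under all but one alternative. Tested against a fold change of 1.2, 1 member was called with ethanol in IP and 1 in input, because smaller changes do not pass by construction. With single libraries left out, 5 to 7 members were called in IP against input, 3 to 4 with ethanol in IP, 4 to 5 in input and 0 for the difference. DESeq2 called 3 members in IP and 4 in input, without *Ptprz1*. With the dish as a replicate block, 6 members were called in IP against input and 0 for the difference, and with the number as a replicate block 4 in IP and 5 in input, so that the block changed no count of members. Control and ethanol dishes share only that number (correlations from −0.15 to 0.40). *Tnr* with ethanol in IP turned to 0.043 in replicates 1 to 3, where the cause was not tested. The difference between fractions, which no fit called for a member, changed sign in 3 of 27 alternatives for *Bcan*, 10 for *Ncan* and 8 for *Ptprz1*, within −0.05 to 0.03. Depth limits *Acan*, *Hapln1* and *Hapln2*, and leaves wide intervals for *Tnr* and *Hapln3*.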
